A study of Mus musculus with 24 samples.

Results

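The CC chemokine ligands are small secreted proteins that attract leukocytes, and 10 of the mouse genes for them are described here in cultured glia: Ccl2, Ccl3, Ccl4, Ccl5, Ccl6, Ccl7, Ccl9, Ccl12, Ccl20 and Ccl22. They were chosen by name, as the entries of the deposited tables whose symbol equals a member, and make up 10 of the 24411 genes there. The study asked how glia of a mouse model of amyotrophic lateral sclerosis respond to inflammatory signals, and measured RNA of purified astrocytes and microglia by bulk RNA-seq. Of 24 samples, 21 were analysed here, with 3 libraries in each of 7 groups, and 3 libraries of quiescent SOD1G93A microglia were not used here. Nothing in the labels states that the replicates of a group are separate animals or cultures, so a p-value measures the spread between these libraries, which may be technical.

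Astrocytes came from cortices of mice at postnatal day 5, taken by immunopanning (depletion on antibodies to CD45 and O4 and on the lectin BSL I, then capture with an antibody to HepaCAM), and were grown without serum with HBEGF. Microglia came from whole brains at postnatal days 7 to 10, taken with magnetic beads against Cd11b, and were grown without serum with TGF-β2, IL-34 and cholesterol. WT quiescent astrocytes and SOD1G93A quiescent astrocytes received PBS, while WT activated astrocytes and SOD1G93A activated astrocytes received a mix in which IL-1α was dosed at 3, TNFα at 30 and C1q at 400 ng/mL. WT quiescent microglia received PBS, while WT LPS microglia and SOD1G93A LPS microglia received 50 ng/mL of lipopolysaccharide, LPS, from the outer membrane of bacteria. The labels do not state how long the agents were left on. SOD1G93A mice carry a transgene for a mutant human superoxide dismutase under its own promoter, which is active in all cell types, and the cells are from animals far younger than those with disease signs. Cell type goes with age, brain region, isolation, medium and activating agent, so these cannot be told apart in a comparison of microglia with astrocytes.

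CC chemokines act on G-protein-coupled receptors of leukocytes and set up gradients along which these cells migrate. Ccl2, Ccl7 and Ccl12 are ligands of Ccr2 and draw monocytes, Ccl3, Ccl5, Ccl6 and Ccl9 are ligands of Ccr1, and Ccl3, Ccl4 and Ccl5 draw monocytes and T cells. Ccl20 is the ligand of Ccr6 and Ccl22 is a ligand of Ccr4, receptors found mainly on lymphocytes and dendritic cells, and in the brain many of these genes are induced in glia through NF-κB.

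The shallowest library held 2016139 reads on genes, the deepest 11570122, and the median was 5098168. Group medians were 6940651 in WT quiescent, 5098168 in WT LPS and 5917006 in SOD1G93A LPS microglia. In astrocytes they were 3637657 for WT quiescent, 7251063 for SOD1G93A quiescent, 5749391 for WT activated and 3721779 for SOD1G93A activated libraries. Levels are given in RPM, the reads of a gene per 1000000 reads on all genes of its library. Replicates of a group differed by more than counting noise: a chi-square per degree of freedom, which is near 1 where counting is the only noise, ranged from 1.50 to 21.7 over 21 pairs of libraries. SOD1G93A LPS replicate 3 stood apart from replicates 1 and 2 of its group (16.8 and 21.7, against 2.41 between those), and results that rest on it are given with and without it. WT LPS replicate 1 stood apart from replicates 2 and 3 (15.1 and 13.8, against 1.65 between those). So did WT quiescent astrocyte replicate 3 (9.46 and 6.82, against 2.08) and SOD1G93A quiescent astrocyte replicate 1 (6.77 and 10.4, against 2.88), and calls that differ without a library are given below.

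The labels were checked against marker genes. The 10 astrocyte markers summed to 4158 to 6228 RPM in the 12 astrocyte libraries and to 139 to 233 in the 9 microglia libraries. The 15 microglia markers summed to 13787 to 14692 RPM in quiescent microglia, 4940 to 5385 in WT LPS microglia and 5327 to 7041 in SOD1G93A LPS microglia. Astrocyte libraries also held reads of microglia markers: 15 of 15 were detected in each, and of the 5 defining markers (P2ry12, Tmem119, Cx3cr1, Csf1r and Aif1) 0 were at 0 reads. The 15 microglia markers summed to 199, 286 and 364 RPM in WT quiescent astrocytes and 451, 472 and 319 in SOD1G93A quiescent astrocytes. After activation the sum was 246, 402 and 215 in WT astrocytes and 304, 210 and 232 in SOD1G93A astrocytes, and over the 4 groups Csf1r was the most abundant gene in 8 of the 12 libraries. In bulk RNA, fewer cells of a type and less RNA per cell cannot be told apart.

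Other cell types were looked for with the same kind of list. Markers of border macrophages summed to 38.8 to 42.3 RPM in quiescent microglia and 142 to 229 in LPS microglia, led by Ms4a7 in each library, and to at most 4.69 in astrocytes. Markers of monocytes and neutrophils reached at most 1.92 RPM in astrocytes, where Camp led in the activated libraries, and 10.1 in microglia, where Ly6c2 led in that library, and the 3 T cell markers held by the tables had 0 reads in all 21 libraries. Oligodendrocyte lineage markers averaged 2872 RPM in WT quiescent astrocytes and 1072 in WT activated astrocytes, led by Olig1, and averaged 1340 in quiescent microglia, led by Cspg4, against 106 in WT LPS and 183 in SOD1G93A LPS microglia. Endothelial markers averaged 9.14 and 145 RPM in WT quiescent and activated astrocytes, led by Flt1 (8.85 and 144), and 54.8, 19.7 and 20.8 in WT quiescent, WT LPS and SOD1G93A LPS microglia. Markers of pericytes and fibroblasts averaged 9.82 and 48.4 in the WT astrocyte groups, led after activation by Lum. Neuron markers averaged 24.5 and 39.4 there, led by Tubb3. The part of these cells in the chemokine results was not tested.

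**Figure D1:**
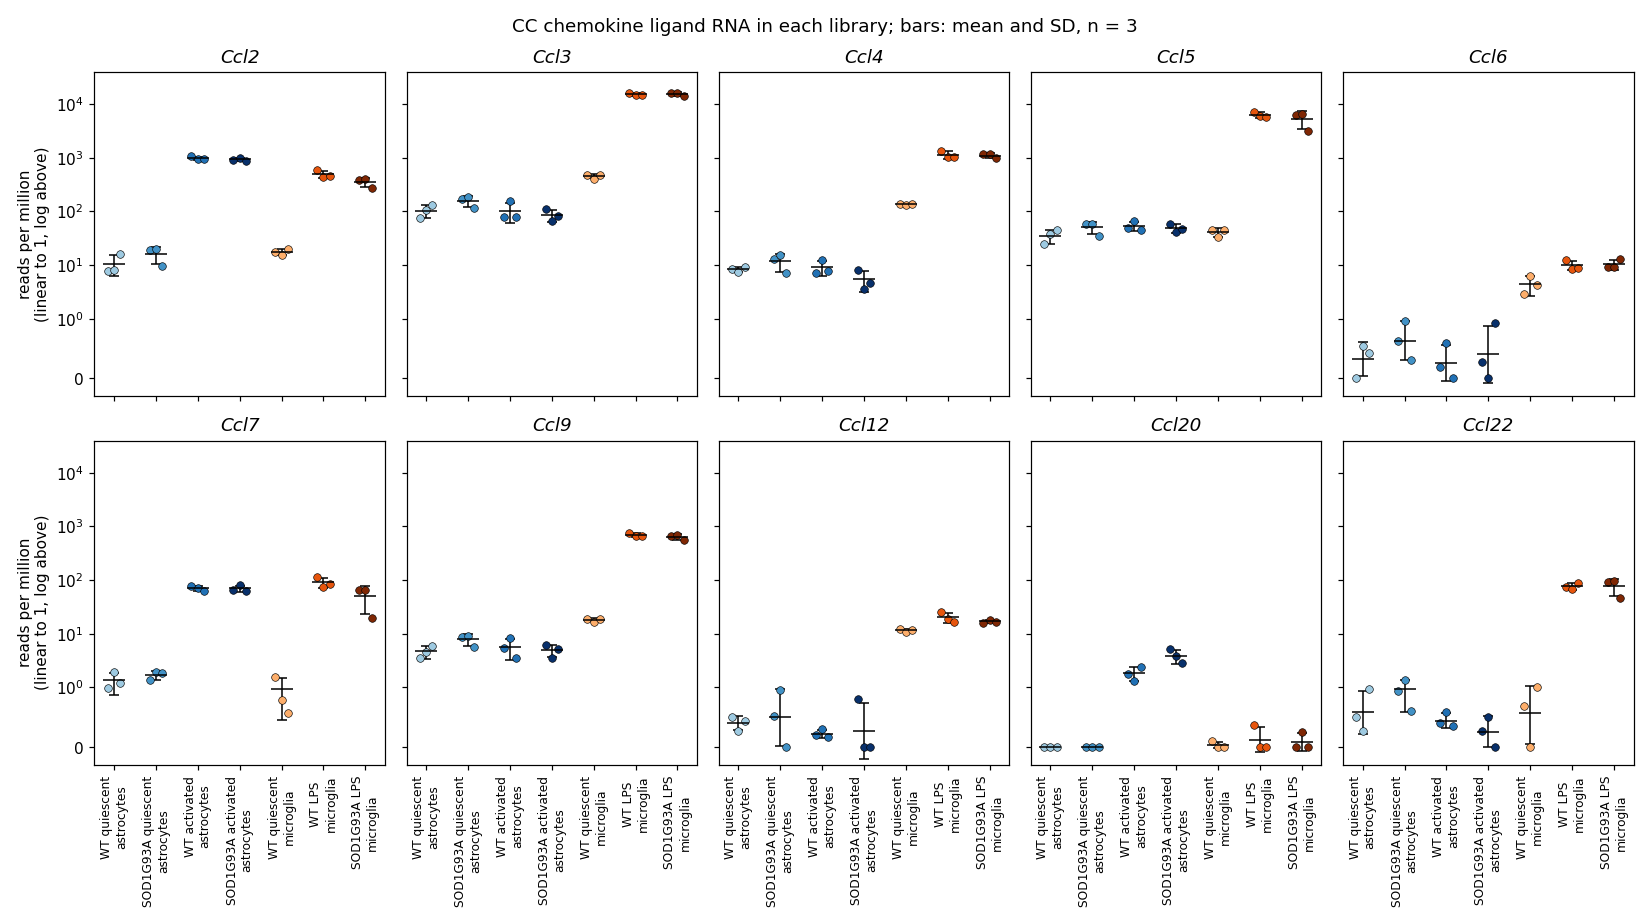
Level of each of the 10 genes in each of 21 libraries, in RPM (axis linear up to 1 and logarithmic above), with bars for the mean and SD of 3 libraries. Ccl2 and Ccl7 stand above quiescent levels in activated groups of both cell types, Ccl3, Ccl4, Ccl5, Ccl9 and Ccl22 in LPS microglia, and Ccl20 has 0 reads in quiescent astrocytes and 1.33 to 5.11 RPM in activated ones.

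Differences were tested with limma on log2(normalized count + 1), the normalized count being reads divided by a size factor of the library. Genes with a mean of at least 10 in the libraries of a fit were tested, and a gene was called at a Benjamini-Hochberg adjusted p-value under 0.001, over all genes tested, with a change of more than 2-fold. Only called genes are said to have risen or fallen, and intervals of log2 fold changes cover 95%. With 3 libraries against 3 an exact permutation test of a single gene cannot go below a p of 0.1, so adjusted p-values from limma are given. Size factors set the median gene near no change. Compared with RPM this moved log2 fold changes up by 0.55 for quiescent microglia over quiescent astrocytes, by 0.76 for LPS microglia over activated astrocytes and by 0.22 for LPS over quiescent microglia. Comparisons below share control libraries: WT quiescent astrocytes and WT quiescent microglia each serve in more than 1 of them.

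Ccl2 is the main ligand of Ccr2 and the best known attractant of monocytes. In WT quiescent astrocytes it stood at 7.94, 8.25 and 16.0 RPM, and in WT activated astrocytes at 1063, 938 and 939. SOD1G93A astrocytes had 19.3, 19.6 and 9.72 RPM when quiescent and 918, 997 and 878 when activated. Every activated library was far above every quiescent one in each genotype, and the genotypes overlapped in each state. Ccl2 rose 91.4-fold in RPM in WT astrocytes (log2 fold change 6.58, SE 0.23, adjusted p 5.7e-09) and 57.4-fold in SOD1G93A astrocytes (5.97, SE 0.25, adjusted p 6.5e-12). Microglia held 17.7, 15.3 and 19.6 RPM in the WT quiescent group and 581, 448 and 450 in the WT LPS group, and SOD1G93A LPS microglia 383, 406 and 277. LPS libraries were all above quiescent ones, WT LPS libraries were all above SOD1G93A ones, and activated astrocytes were all above LPS microglia. In WT microglia Ccl2 rose 28.1-fold (log2 fold change 5.01, SE 0.12, adjusted p 2.5e-10).

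Between cell types the size of the Ccl2 difference depends on the scaling. In RPM the quiescent WT groups overlapped, with a ratio of means of 1.64 for microglia over astrocytes, while the scaled log2 fold change was 1.31 (adjusted p 6.7e-05) and called. Of the 2 activated WT groups, astrocytes had more Ccl2 in RPM, with 0.503 as the ratio of LPS microglia to activated astrocytes and no overlap. On scaled counts that difference was a log2 fold change of −0.23 (interval −0.71 to 0.24) and not called, and with quantile normalization it was −1.26 (adjusted p 0.00052, and 0.00052 to 0.54 over the alternatives) and called.

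Ccl7 is a close relative of Ccl2 that binds Ccr2 and Ccr1 and lies near it on chromosome 11. It had 0.992, 1.92 and 1.19 RPM in WT quiescent astrocytes and 78.1, 70.5 and 62.4 in WT activated ones. The same states of SOD1G93A astrocytes had 1.37, 1.93 and 1.82 RPM and 65.8, 80.2 and 63.7. States did not overlap in either genotype, and genotypes overlapped in both states. In astrocytes Ccl7 rose 51.4-fold in WT (log2 fold change 5.55, SE 0.23, adjusted p 2.3e-08) and 41.0-fold in SOD1G93A (5.27, SE 0.21, adjusted p 3.4e-12). WT microglia had 1.58, 0.784 and 0.576 RPM of Ccl7 when quiescent and 114, 74.7 and 84.9 after LPS, and SOD1G93A LPS microglia 65.2, 64.7 and 19.3. SOD1G93A LPS replicate 3 was the lowest of the LPS libraries, and the WT LPS libraries overlapped with activated astrocytes. In WT microglia Ccl7 rose 93.1-fold (log2 fold change 6.57, SE 0.28, adjusted p 1.5e-08). With 20 reads in WT quiescent astrocytes and 22 in WT quiescent microglia over 3 libraries each, Ccl7 passed the minimum mean only through its activated groups and had to differ to be tested.

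Ccl12 is a mouse ligand of Ccr2 from the same stretch of chromosome 11. It had 12.4, 11 and 12 RPM in WT quiescent microglia, 25.4, 19.2 and 16.9 in WT LPS microglia and 16.2, 18.1 and 16.6 in SOD1G93A LPS microglia. LPS libraries were all above quiescent ones, by far less than for Ccl2 and Ccl7. Its log2 fold change in WT microglia, 0.98 (interval 0.63 to 1.34, adjusted p 0.00041), fell short of the 2-fold limit, and without WT LPS replicate 3 it was 1.11 (adjusted p 0.00039, and 1.6e-05 to 0.0027 over the alternatives) and called. DESeq2 and edgeR on recovered reads also called it. In astrocytes Ccl12 was seen in 3 to 12 reads per group of 3 libraries and was not tested within them. Quiescent WT microglia exceeded quiescent WT astrocytes by a log2 fold change of 4.79 (adjusted p 6.7e-10), a test that Ccl12 entered only through microglia.

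Ccl3 is a ligand of Ccr1 that draws monocytes and T cells. Its level was 475, 407 and 474 RPM in WT quiescent microglia, 16182, 14819 and 14641 in WT LPS microglia and 16053, 16204 and 14069 in SOD1G93A LPS microglia. The LPS groups overlapped with each other and lay far above the quiescent group. In WT microglia Ccl3 rose 33.7-fold (log2 fold change 5.29, SE 0.09, adjusted p 2.4e-11). Astrocytes held far less: 75.9, 106 and 131 RPM in WT quiescent and 78.1, 154 and 80.2 in WT activated libraries, and 168, 187 and 118 in SOD1G93A quiescent and 110, 65.7 and 82.4 in SOD1G93A activated libraries. In WT the states overlapped, and in SOD1G93A every quiescent library was above every activated one. The log2 fold change on activation was −0.02 in WT astrocytes (interval −0.58 to 0.54) and −0.79 in SOD1G93A astrocytes (interval −1.33 to −0.26, adjusted p 0.018), neither called.

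Ccl4 draws monocytes and T cells and lies near Ccl3. It had 139, 131 and 139 RPM in WT quiescent microglia, 1361, 1027 and 1034 in WT LPS microglia and 1158, 1168 and 973 in SOD1G93A LPS microglia. Quiescent and LPS libraries did not overlap, and the LPS genotypes did. In WT microglia Ccl4 rose 8.38-fold (log2 fold change 3.27, SE 0.10, adjusted p 1.6e-09). Astrocyte libraries had 3.56 to 15.6 RPM of Ccl4, with overlap of the states in both genotypes, and the log2 fold change on activation was 0.10 in WT (interval −0.42 to 0.62) and −1.01 in SOD1G93A (interval −1.69 to −0.34, adjusted p 0.016), neither called.

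Ccl5 is a ligand of Ccr1 that draws T cells. It stood at 46.1, 32.9 and 44.5 RPM in WT quiescent microglia and at 7298, 5968 and 5862 after LPS, while SOD1G93A LPS microglia had 6365, 6692 and 3119. All LPS libraries were above all others, and SOD1G93A LPS replicate 3 was the lowest LPS library. In WT microglia Ccl5 rose 155-fold (log2 fold change 7.49, SE 0.12, adjusted p 2.4e-11). WT astrocytes had 24.3, 37.4 and 44.6 RPM when quiescent and 50.1, 65.9 and 45.4 when activated, which do not overlap but lie close. There the log2 fold change of Ccl5 was 0.65 (interval 0.17 to 1.13, adjusted p 0.034), short of both limits, and in SOD1G93A astrocytes, at 35.2 to 59.6 RPM over both states, it was 0.04 (interval −0.44 to 0.53).

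Ccl9 and Ccl6 are rodent ligands of Ccr1 that lie side by side. Ccl9 had 18.9, 16.9 and 19.0 RPM in WT quiescent microglia, 749, 664 and 660 in WT LPS microglia and 678, 688 and 560 in SOD1G93A LPS microglia. States did not overlap, and Ccl9 rose 37.9-fold in WT microglia (log2 fold change 5.44, SE 0.09, adjusted p 2.4e-11). In astrocytes it had 3.47 to 9.24 RPM, with a log2 fold change on activation of 0.24 in WT (interval −0.50 to 0.99) and −0.57 in SOD1G93A (interval −1.25 to 0.12). Ccl6 had 2.86, 6.27 and 4.18 RPM in WT quiescent microglia, 12.3, 8.63 and 8.99 in WT LPS microglia and 9.30, 9.08 and 12.9 in SOD1G93A LPS microglia. Quiescent libraries were all below LPS libraries. The log2 fold change of Ccl6 in WT microglia was 1.40 (interval 0.76 to 2.03, adjusted p 0.0018) and missed the limit on p, while without WT quiescent replicate 2 it was 1.69 (adjusted p 0.00062, and 1.1e-05 to 0.0063 over the alternatives) and called, as it was by DESeq2 and edgeR. In astrocytes Ccl6 had 3 to 14 reads per group and was not tested within them.

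Ccl2, Ccl3, Ccl4, Ccl5 and Ccl9 in astrocytes were set beside the summed microglia markers. In each of the 4 astrocyte groups the library with the highest marker sum was also the highest for Ccl3, Ccl4 and Ccl9. The order of the other 2 libraries differed from that of the markers for Ccl4 in WT quiescent and for Ccl3 and Ccl4 in WT activated astrocytes. Reads of Ccl3 per read of microglia markers stood between 0.313 and 0.397 in the 12 astrocyte libraries, against 0.0277 to 0.0344 in quiescent microglia and 2.00 to 3.04 in LPS microglia. Over the 12 astrocyte libraries the ratio was 0.0162 to 0.0222 for Ccl9 and, less evenly, 0.0170 to 0.0424 for Ccl4. For Ccl5 it was not level over the states, at 0.111 to 0.132 in the 6 quiescent and 0.164 to 0.211 in the 6 activated libraries. For Ccl2 the same ratio was 0.0288 to 0.0439 in quiescent astrocytes, 2.33 to 4.75 in activated astrocytes and 0.0394 to 0.108 in LPS microglia. The ratio for Ccl3 was thus close to level over the astrocyte states, and the ratio for Ccl2 was higher in activated astrocytes than in any microglia library. The part of microglial RNA in the astrocyte levels of these genes was not tested.

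**Figure D2:**
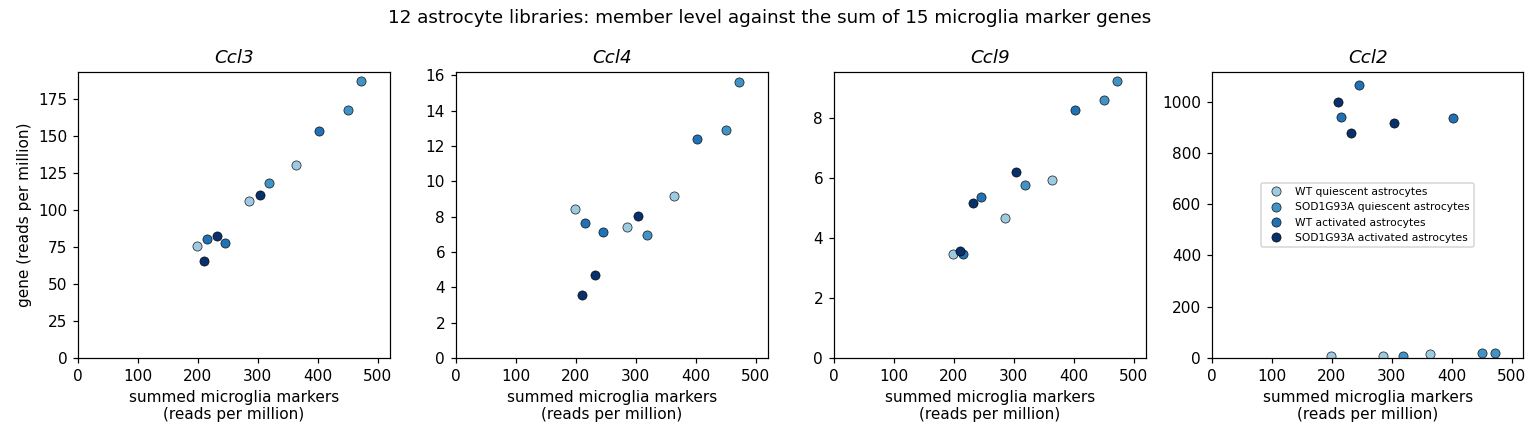
Level of Ccl3, Ccl4, Ccl9 and Ccl2 (vertical axes) against the sum of 15 microglia marker genes (horizontal axes), both in RPM, in the 12 astrocyte libraries. Ccl3 ranges from 65.7 to 187 RPM and the marker sum from 199 to 472, while Ccl2 separates by state, at 7.94 to 19.6 in quiescent and 878 to 1063 in activated libraries.

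Ccl20 draws cells that carry Ccr6, among them dendritic cells and some T cells. It had 0 reads in each of the 6 quiescent astrocyte libraries, 1.78, 1.33 and 2.44 RPM in WT activated astrocytes and 5.11, 3.82 and 2.81 in SOD1G93A activated astrocytes. Activated libraries of SOD1G93A were all above those of WT, and microglia had 1 to 3 reads per group. A count of 0 over 3 libraries allows up to 3 reads, or 0.201 RPM in WT and 0.149 in SOD1G93A quiescent astrocytes. Against that floor, with reads pooled over the group, Ccl20 was at least 9.06-fold higher in WT activated astrocytes (32 reads) and at least 27.3-fold higher in SOD1G93A activated astrocytes (40 reads). Such floors and the counting intervals cover counting error only, that of the smaller count, with the larger count taken as exact. Its mean was under 10 in these comparisons, so it was not tested in them. With no minimum mean limma called it in WT (adjusted p 8.0e-05) and SOD1G93A (adjusted p 1.5e-07). The quiescent groups, at 0 reads in every library, have no spread of their own, so these calls add nothing to the floors.

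Ccl22 binds Ccr4 and draws regulatory T cells, and is made mostly by macrophages and dendritic cells. It had 0.689, 0 and 1.01 RPM in WT quiescent microglia, 73.3, 67.1 and 88.4 in WT LPS microglia and 92.6, 94.3 and 45.8 in SOD1G93A LPS microglia. LPS libraries were all far above quiescent ones, and SOD1G93A LPS replicate 3 was the lowest of them. In WT microglia Ccl22 rose 135-fold (log2 fold change 7.24, SE 0.55, adjusted p 1.2e-06). With 14 reads in the quiescent group it entered the test only through the LPS group, and without WT quiescent replicate 2, the library at 0, the log2 fold change was 6.44. Astrocyte groups had 3 to 21 reads of Ccl22, too few for a test. The 3 reads in SOD1G93A activated against 21 in SOD1G93A quiescent astrocytes give a ratio of 0.293 per read sequenced. Its counting interval, with the 21 reads taken as exact and so too narrow, was 0.0604 to 0.856.

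Counts of members are read against the share of all tested genes called in the same direction. In WT astrocytes 2 of the 6 members tested were called higher on activation, Ccl2 and Ccl7, where 6% of 12336 genes were. In SOD1G93A astrocytes the called members were also Ccl2 and Ccl7, 2 of 6 tested, beside 6.74% of 12269 genes. In WT microglia 7 of 9 were called higher after LPS, beside 10.2% of 10866 genes: Ccl2, Ccl3, Ccl4, Ccl5, Ccl7, Ccl9 and Ccl22. The comparison of SOD1G93A LPS with WT quiescent microglia mixes genotype and state, and in it 7 of 9 members, the same by name, were called higher, beside 8.22% of 10921 genes. These counts leave out the members under the minimum mean and are not counts over all 10. Ccl7 in all 4 comparisons, and Ccl22 in those of microglia, entered only through the activated group and had to be higher there to be tested, so they do not bear on the comparison with these shares. In these comparisons 0 members were called lower by limma, DESeq2 or edgeR, while Ccl3 and Ccl4 in SOD1G93A astrocytes lay below 0 with an unadjusted p under 0.05.

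Without SOD1G93A LPS replicate 3 the 7 members remained called in the mixed comparison, with log2 fold changes of 4.73 for Ccl2 (4.54 with it), 7.56 for Ccl5 (7.18) and 6.15 for Ccl7 (5.55). Ccl22 was at 7.61 without it (7.25 with it), and at 6.42 without WT quiescent replicate 2. Ccl3, Ccl4 and Ccl9 were at 5.32, 3.23 and 5.34 with the library and at 5.40, 3.34 and 5.46 without it.

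**Figure D3:**
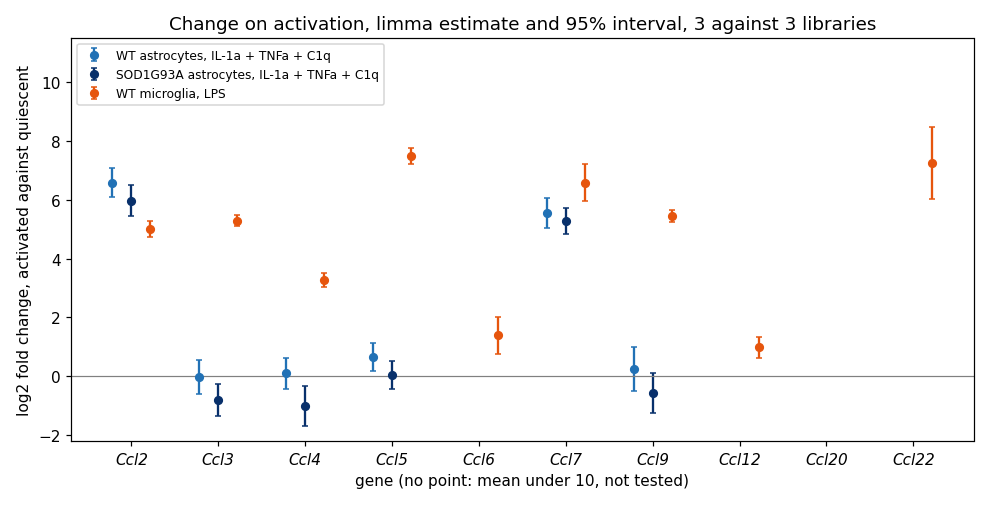
Log2 fold change of activated over quiescent libraries for each member tested, with 95% intervals from limma, in WT astrocytes, SOD1G93A astrocytes and WT microglia (3 against 3 libraries each, SOD1G93A within a fit of all 12 astrocyte libraries). Ccl2 and Ccl7 lie above 5 in all 3 comparisons, while Ccl3, Ccl4, Ccl5 and Ccl9 lie between 3.27 and 7.49 in microglia and between −1.01 and 0.65 in astrocytes.

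The response to LPS in WT microglia was tested against the response to IL-1α, TNFα and C1q in WT astrocytes as an interaction over their 12 libraries. Of 9 members tested 5 were called, each with a larger response in microglia, beside 6.73% of 12334 genes called in that direction. The difference of log2 responses was 5.33 for Ccl3, 3.19 for Ccl4, 6.87 for Ccl5, 5.23 for Ccl9 and 7.53 for Ccl22 (SE 0.33, 0.25, 0.30, 0.35 and 0.83). Ccl22 entered this test only through LPS microglia and had to differ to be tested, and without WT quiescent microglia replicate 2 its difference was 6.67. Ccl2 had the opposite sign, −1.54 (interval −2.21 to −0.88, adjusted p 0.0011), just past the limit on p. It was called lower by DESeq2, edgeR, quantile normalization, a pseudocount of 5 and the replicate number as a block (adjusted p 0.00083), and by limma without WT quiescent astrocyte replicate 3, at −1.90 (adjusted p 1.1e-06, and 1.1e-06 to 0.0041 over the alternatives). For Ccl7 the difference was 1.12 (interval 0.23 to 2.00) and took the opposite sign with quantile normalization, at −0.48, so its direction depends on the scaling. Ccl6 and Ccl12 were at 1.60 and 1.46, neither called.

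Side by side, quiescent WT microglia exceeded quiescent WT astrocytes in 6 of 9 members tested, beside 22% of 12334 genes: Ccl2, Ccl3 (log2 fold change 2.69), Ccl4 (4.54), Ccl6 (3.67), Ccl9 (2.48) and Ccl12. Without WT quiescent astrocyte replicate 3, Ccl5 was called too, at 1.01 against 0.79 with it. LPS microglia exceeded activated astrocytes in 7 of 9, beside 22.7% of 12334 genes: Ccl3 (8.03), Ccl4 (7.73), Ccl5 (7.66), Ccl6 (5.27), Ccl9 (7.71), Ccl12 (6.24) and Ccl22 (7.58). Ccl6 and Ccl12 (6 reads each in WT quiescent and 5 and 4 in WT activated astrocytes) and Ccl22 (8 in WT activated astrocytes) entered only through microglia, and do not bear on the comparison with these shares. Ccl7 was at 1.12 (adjusted p 0.0027), not called by limma and called by DESeq2 and edgeR, while in RPM the groups overlapped. Ccl20 was lower in LPS microglia than in activated astrocytes, with a ratio of 0.0920 from 3 and 32 reads. Its counting interval, with the 32 reads taken as exact, was 0.0190 to 0.269.

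SOD1G93A was compared with WT in 3 states. In quiescent astrocytes 0 of 5 members tested were called by limma, DESeq2 or edgeR, and by limma 2 had an unadjusted p under 0.05, Ccl3 and Ccl9 (2 by DESeq2 and 2 by edgeR). Of 12271 genes limma called 0%, with 1068 at an unadjusted p under 0.05, DESeq2 called 6 and edgeR 0. The groups overlapped for all 5, and the log2 fold changes were above 0, from 0.40 for Ccl4 to 0.70 for Ccl9 (interval 0.06 to 1.34). The summed microglia markers averaged 414 RPM in SOD1G93A and 283 in WT quiescent astrocytes, and their part in these differences was not tested. In activated astrocytes 0 of 7 were called by limma, DESeq2 or edgeR, beside 0.645% of 12098 genes in either direction by limma. By limma 2 had an unadjusted p under 0.05, Ccl4 and Ccl20 (1 by DESeq2 and 2 by edgeR), beside 2464 of the 12098 genes. Ccl2 and Ccl7 had narrow intervals there, −0.17 to 0.10 around −0.03 and −0.17 to 0.23 around 0.03. Ccl20 had a log2 fold change of 1.03 (interval 0.25 to 1.80, adjusted p 0.11, and 0.0497 to 0.335 over the alternatives tried). At 1.85 RPM in WT and 3.91 in SOD1G93A, it passed the minimum mean only through SOD1G93A and had to be higher there to be tested. Its unadjusted p therefore does not bear on the comparison with the count over all genes, and its test does not count as support for a difference. Ccl4 was at −0.71 (interval −1.30 to −0.12, adjusted p 0.16).

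Whether activation acted differently in the genotypes was tested as an interaction over the 12 astrocyte libraries. Of 6 members 0 were called by limma, DESeq2 or edgeR, and by limma Ccl3 and Ccl4 had an unadjusted p under 0.05 (1 member by DESeq2 and 2 by edgeR). Of 12269 genes limma called 0%, with 1018 at an unadjusted p under 0.05, DESeq2 called 22 and edgeR 4. All 6 estimates were below 0, from −0.26 for Ccl7 (interval −0.89 to 0.37) to −1.11 for Ccl4 (interval −2.06 to −0.16). That of Ccl2 was −0.61 (interval −1.36 to 0.14) and that of Ccl3 −0.77 (interval −1.53 to −0.01), so the lower Ccl3 of activated SOD1G93A astrocytes is not shown to differ from the response in WT.

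In LPS microglia 0 of 9 members were called between genotypes by limma, DESeq2 or edgeR, and by limma Ccl2 and Ccl7 had an unadjusted p under 0.05 (1 member by DESeq2 and 2 by edgeR). Of 10679 genes limma called 0%, with 930 at an unadjusted p under 0.05, DESeq2 called 3 and edgeR 0. Ccl7 had a log2 fold change of −1.04 (interval −2.01 to −0.07, adjusted p 0.57), and without SOD1G93A LPS replicate 3 it was −0.44 (interval −0.80 to −0.08). Ccl2 moved from −0.48 (interval −0.86 to −0.09) to −0.29 (interval −0.55 to −0.03) without that library. Ccl5 went from −0.31 to 0.06 and Ccl22 from −0.03 to 0.32. In that library Ccl3 took 73.7% of the reads on members and Ccl5 16.3%, against 63.9% to 64.7% and 25.6% to 26.4% in the other SOD1G93A LPS libraries.

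The 10 genes took 0.0122% to 0.0296% of the reads of quiescent astrocyte libraries and 0.108% to 0.128% of those of activated astrocyte libraries. In quiescent microglia they took 0.0621% to 0.0714%, and in LPS microglia 1.91% to 2.64%. Of the reads on members, Ccl2 held 4.94% to 7.63% in quiescent astrocytes and 74.9% to 83.4% in activated ones. Between genes, levels are compared per kilobase of annotated exon. On that scale Ccl3 was the highest member in quiescent microglia (590 ± 51.3 RPM per kilobase, SD, n = 3), followed by Ccl4 (206 ± 6.79) and Ccl5 (42.9 ± 7.48). WT LPS microglia had Ccl3 (19861 ± 1101), Ccl5 (6642 ± 833), Ccl4 (1729 ± 289) and Ccl2 (433 ± 66.7) in that order, and Ccl22 (32.8 ± 4.71) within the spread of Ccl12 (38.2 ± 8.14). In WT quiescent astrocytes the order by level per kilobase was Ccl3 (136 ± 35.9), Ccl5 (36.9 ± 10.7), Ccl4 (12.6 ± 1.34) and Ccl2 (9.42 ± 4.01), the last 2 within their spread. WT activated astrocytes had Ccl2 at the top (861 ± 63.4), then Ccl3 (136 ± 56.1) and Ccl7 (87.8 ± 9.75), which lie within their spread, then Ccl5 (56.0 ± 11.2), with Ccl20 at 1.30 ± 0.391.

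For a given gene the groups fall in an order of mean RPM. Ccl2 was highest in WT activated astrocytes (980 ± 72.2) and SOD1G93A activated astrocytes (931 ± 60.5), which overlapped, then in WT LPS (493 ± 75.9) and SOD1G93A LPS microglia (355 ± 68.6), then in the 3 quiescent groups, neighbours of which overlapped. Ccl7 had its top 4 groups between 49.8 and 91.1 RPM, the activated ones of both cell types, and neighbours among them overlapped. Ccl3, Ccl4 and Ccl9 had the order of LPS microglia, quiescent microglia and astrocytes with no overlap between these 3, and overlapping groups among the astrocytes. Ccl6 and Ccl12 had that order too. Ccl5 and Ccl22 were highest in LPS microglia, and below them neighbours in the order overlapped. Ccl20 was highest in SOD1G93A activated astrocytes (3.91 ± 1.15), above WT activated astrocytes (1.85 ± 0.556) without overlap.

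The receptors were read from a list of 14 genes. In WT microglia those called higher after LPS included Ccr7 (log2 fold change 6.84), Ccrl2 (5.65) and Ccr1 (4.11), where the median over all genes tested was 0.00. Of these Ccr1 binds members, and its mean level went from 6.21 to 95.1 RPM. Ccr2, the receptor of Ccl2, Ccl7 and Ccl12, went from 2.43 to 7.39. With 15 reads in WT quiescent and 1489 in WT LPS microglia, Ccr7 entered the test only through the LPS group. It had to be higher there to be tested. In WT activated astrocytes Ccr2 had 0 reads, Ccr1 averaged 0.659 RPM, and the 1 receptor that could be tested had a log2 fold change of 0.60 and was not called. Ccr6, the receptor of Ccl20, had 0 reads in all 21 libraries, and Ccr4, the receptor of Ccl22, had at most 0.534 RPM as a group mean.

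The other CC ligands of the mouse, 11 genes, had group means of at most 4.05 RPM. At most 2 of them reached the minimum mean in any comparison. In WT astrocytes the 2 tested had a median log2 fold change of 0.49 on activation, beside 0.01 over all genes, and neither was called. The highest was Ccl25 in SOD1G93A quiescent astrocytes. Ccl11 and Ccl19 had 33 and 22 reads in WT activated astrocytes and 1 each in WT quiescent ones, and 21 and 12 in SOD1G93A activated astrocytes and 0 in SOD1G93A quiescent ones. The level of Ccl11 was 1.85 RPM in WT and 1.97 in SOD1G93A activated astrocytes, and that of Ccl20 was 1.85 and 3.91.

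A list of 20 transcription factors and inhibitors upstream of chemokine genes was tested in full. In WT astrocytes 11 were called on activation, each higher, beside 6% of all genes, with a median log2 fold change of 1.73 over the list and 0.01 over all genes. In SOD1G93A astrocytes 13 were called, each higher (median 2.09), beside 6.74% of genes, and in WT microglia 14 after LPS, each higher (median 2.14), beside 10.2%. The largest in WT astrocytes were Cebpd (5.01), Nfkbia (4.55), Nfkbiz (3.38) and Cebpb (3.11), and in WT microglia Irf7 (5.51), Nfkbiz (4.59), Tnfaip3 (4.28) and Nfkb2 (3.13). In the tested difference of responses, of microglia against astrocytes, 6 were called above 0 and 3 below, beside 830 and 1041 of 12334 genes, with Irf7 at 5.06 and Cebpd at −4.93. Between genotypes Irf7 (1.27) was called higher in SOD1G93A activated astrocytes.

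Genes most like each member were taken by Pearson r of log2(RPM + 1) over the 21 libraries, among 12535 genes. The points share cell type and state, which set most of the spread, so r is a description and carries no p. Ccl2 was most like Cxcl1 (0.996), C3 (0.992) and Micall2 (0.989), and Ccl7 most like Cxcl1 (0.983), Mfsd7c (0.983) and Gbp2 (0.981). Ccl3 was most like another member, Ccl9 (0.998), then Hcar2 (0.996) and Tnf (0.995), and Ccl9 was most like Ccl3, Il1rn (0.995) and Ccrl2 (0.995). Ccl5 was closest to Serpinb2 (0.996), Il1a (0.996) and Il1b (0.995), and Ccl22 to Tarm1 (0.995), Il1b (0.995) and Il1a (0.994). Ccl4 was closest to Fcgr2b (0.996), Syk (0.996) and Grap (0.995), and Ccl12 to Rasa4 (0.994), Ly6e (0.994) and Srgn (0.993).

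By position in GENCODE M21 on GRCm38, 8 of the 10 genes lie on chromosome 11. Ccl2 (82035571 to 82037453), Ccl7 (82045712 to 82047525) and Ccl12 (82101845 to 82103400) follow each other on the plus strand. Ccl5 (83525778 to 83530518), Ccl9 (83572919 to 83578636), Ccl6 (83587882 to 83593087) and Ccl3 (83647844 to 83649355) lie on the minus strand, and Ccl4 (83662584 to 83664683) on the plus strand. Ccl20 is on chromosome 1 (83116766 to 83119167) and Ccl22 on chromosome 8 (94745590 to 94751699), both on the plus strand. Ccl2 overlaps Gm17268 and Ccl6 overlaps E230016K23Rik, each on the opposite strand, and the other 8 overlap no annotated gene. The libraries were strand-specific, the strand setting of the counting is not in the labels or methods text, and the pipeline cited there for its options was not at hand. Reads shared by the paralogs Ccl2, Ccl7 and Ccl12, or Ccl6 and Ccl9, were not examined.

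Promoter windows were matched by symbol to RefSeq (build GRCm38.p6), with an entry for 6 of the 10 members, Ccl3, Ccl6, Ccl9, Ccl12, Ccl20 and Ccl22. Each window of 250 bases before the start was searched on both strands for the κB consensus, bound by NF-κB, for TATAAA, for the letters TGANTCA, and for GAAA followed after any 2 bases by another GAAA. Of 32851 windows of that length 7.25% held the κB consensus, 12.4% the letters TATAAA, 6.75% the letters TGANTCA and 2.98% the paired GAAA. The κB consensus was found in Ccl9, 35 bases before the start, and in Ccl20, 80 bases before the start, each on the opposite strand to the gene. TATAAA was found in Ccl9 and Ccl12 and TGANTCA in Ccl9. No κB match overlaps another motif, and among the TATAAA matches of Ccl9 the one 94 and the one 92 bases before the start overlap each other. Printed 5′ to 3′ are the windows of Ccl3 (chr11:83649379-83649628, minus strand) and Ccl9 (chr11:83578637-83578886, minus strand), the pair of members most alike over the libraries, and of Ccl20 (chr1:83116516-83116765, plus strand), read only in activated astrocytes among the astrocyte groups. Capitals mark the matches to the κB consensus, and a match is a description and not a site.
Ccl3: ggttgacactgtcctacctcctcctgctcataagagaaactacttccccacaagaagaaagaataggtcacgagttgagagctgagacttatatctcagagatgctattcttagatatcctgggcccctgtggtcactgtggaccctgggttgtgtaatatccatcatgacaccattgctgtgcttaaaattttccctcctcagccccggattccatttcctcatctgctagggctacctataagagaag
Ccl9: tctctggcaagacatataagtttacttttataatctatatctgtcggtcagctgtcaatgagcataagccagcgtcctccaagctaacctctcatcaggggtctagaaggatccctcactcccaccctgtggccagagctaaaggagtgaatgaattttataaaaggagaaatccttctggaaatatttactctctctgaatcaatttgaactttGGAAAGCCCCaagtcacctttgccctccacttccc
Ccl20: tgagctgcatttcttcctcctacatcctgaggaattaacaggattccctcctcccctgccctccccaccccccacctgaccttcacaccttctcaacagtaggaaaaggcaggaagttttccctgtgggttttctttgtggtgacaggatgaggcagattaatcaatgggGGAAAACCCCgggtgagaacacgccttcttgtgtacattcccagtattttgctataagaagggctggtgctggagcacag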

How the data were processed

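Bulk RNA of cultured mouse astrocytes and microglia was sequenced. Per the study's methods the authors aligned reads to mm10 with STAR, counted them with RSEM and scaled them with DESeq2. The signal in the 6 deposited tables is the normalized count of each gene in each library, made by the authors. The tables also hold comparison columns (mean, log2 fold change, its SE, test statistic, p and adjusted p), which were not used. Reads were recovered by dividing each library's values by its smallest value above 0, and 100% of values were whole within 0.001 reads. RPM and RPM per kilobase used these reads and exon lengths of GENCODE M21.

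Within a table, limma 3.58.1 (R 4.3.3, intensity trend) tested log2(normalized count + 1) of genes with a mean of at least 10. Comparisons across tables used recovered reads scaled together by median of ratios, over 12 libraries. Calls needed an adjusted p under 0.001 over all genes and more than 2-fold. Alternatives were pseudocounts of 0.5 and 5, no filter or a mean of at least 50, TMM and quantile scaling, DESeq2 1.42.0, edgeR 4.0.16, an adjusted p under 0.05 with and without the fold limit, the replicate number as a block, leaving out each library in turn, and levels rescaled by TMM. Fits were tested on simulated data. The members and all lists (markers, other ligands, receptors, upstream factors) were chosen with earlier results of these data known. Named genes were the members, at most 4 called genes of each list by size of change, and the 3 genes most like each member with a group mean of at least 100 normalized counts. Ccr2, Ccr4, Ccr6, Ccl11, Ccl19 and Ccl25 were named after their values were seen. The 3 quiescent SOD1G93A microglia libraries were not analysed here. Promoter windows are from RefSeq.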

Additional observations from a re-analysis of the deposited data

Results flagged for a closer look

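For 5 genes the response to activation differed between WT microglia and WT astrocytes by the interaction test of limma, each larger in microglia. On the log2 scale the response of microglia exceeded that of astrocytes by 5.33 for Ccl3, 3.19 for Ccl4, 6.87 for Ccl5, 5.23 for Ccl9 and 7.53 for Ccl22. Ccl22 entered the test only through LPS microglia and had to differ to be tested, and without WT quiescent microglia replicate 2 its difference was 6.67. Agent, age, region and medium go with cell type and cannot be told apart.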

How the results depend on the processing

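Of 1503 log2 fold changes of members under an alternative, for 84 results, 1421 kept their direction and their side of the call limits, 39 kept their direction and became called, and 43 changed sign. Those 43 were not called in either setting. With DESeq2, Ccl3 in WT astrocyte activation was 0.0054 and Ccl22 between genotypes after LPS 0.045, and with edgeR the latter was 0.055. Ccl5 in SOD1G93A astrocyte activation was −0.00099 with quantile normalization and −0.028 with edgeR. With a pseudocount of 0.5, quiescent microglia over quiescent astrocytes had −0.0027 for Ccl7 and −0.11 for Ccl22. Quantile normalization gave −0.48 for the response difference of Ccl7. The cause was not tested.

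Leaving out 1 library gave these ranges where a sign changed. In WT astrocyte activation they were −0.33 to 0.18 for Ccl3, −0.13 to 0.25 for Ccl4 and −0.053 to 0.53 for Ccl9, and in SOD1G93A astrocytes −0.22 to 0.20 for Ccl5. Between genotypes in activated astrocytes they were −0.083 to 0.026 for Ccl2, −0.38 to 0.12 for Ccl3, −0.23 to 0.058 for Ccl5, −0.072 to 0.11 for Ccl7 and −0.39 to 0.19 for Ccl9. After LPS they were −0.016 to 0.11 for Ccl3, −0.10 to 0.076 for Ccl4, −0.51 to 0.063 for Ccl5, −0.078 to 0.21 for Ccl6, −0.16 to 0.0063 for Ccl9 and −0.22 to 0.32 for Ccl22. For quiescent microglia over quiescent astrocytes they were −0.34 to 0.27 for Ccl7 and −0.51 to 0.91 for Ccl22.

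Counts of called members went from 2 to 4 in SOD1G93A astrocyte activation with an adjusted p under 0.05 at any fold, and from 5 to 8 for the response difference with that limit, with or without the fold limit. Other counts stayed within 1.5 times their value. Over all alternatives they were 2 to 3 in WT astrocytes, 7 to 9 for WT LPS and for SOD1G93A LPS against WT quiescent microglia, 5 to 7 and 6 to 8 between cell types, and 0 for genotype and its interaction. The replicate number as a block gave the same counts except 6 for the response difference, where it added Ccl2. In their deviations from group means, libraries of the same number correlated at −0.44 to 0.06 over 6 comparisons. Of different numbers, WT quiescent astrocyte replicate 3 and SOD1G93A quiescent astrocyte replicate 1 correlated at 0.52. With 3 libraries a group this cannot show whether numbers pair samples, which the labels do not state. A mean of at least 50 left out members, which have no value under it. Rescaling by TMM moved 29 of 70 levels by more than 1 SD, with median ratios from 0.808 to 1.36 by group.

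With 3 libraries a group and 2016139 to 11570122 reads, members under the chosen minimum mean of 10 were not tested except with no minimum, and differences of genotype have intervals wide enough to hold a change of 2-fold for several members.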
